A study of Canis lupus familiaris with 14 samples.

Results

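The 43 genes described here are the single-exon genes of 300 to 700 bases that start between positions 22000000 and 27000000 of dog chromosome 35, out of 30951 genes in the count table. The rule used their position, exon structure and length in the CanFam3.1 assembly, and was set with earlier results of these data known. RNA of whole blood was sequenced from 14 dogs, 7 with lymphoma (cancer that arises in lymphocytes) and 7 controls with a disease that is not lymphoma, called control libraries in place of the label Non-lymphoma. The labels used here give no lymphoma subtype, breed, age or treatment for either group, and every library is its own sample. Nothing states more about the animals, so p-values here reflect how these libraries vary.

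Histones are the small basic proteins around which DNA is wound. A nucleosome holds H3, H4, H2A and H2B, and H1, the linker histone, binds the DNA where it enters and leaves. The replication-dependent histone genes lie in clusters, have no introns and are expressed mainly while DNA is copied. Their mRNAs usually end in a stem-loop in place of a poly(A) tail, so the way a library is made bears on how many of them it captures. In blood, most mature cells no longer divide.

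The lengths of the members fell into narrow groups. All 43 were multiples of 3 bases, as coding sequences without untranslated ends would be. H4-length genes numbered 10, of which 8 were exactly 312 bases long. H2B-length genes numbered 10, with 8 at 381 bases, and H2A-length genes 11, with 7 at 393 bases. H3-length genes numbered 9, with 8 at 411 bases. A pair of H1-length genes had 681 and 648 bases, and 1 gene of 357 bases belonged to none of these groups. The files carry no gene symbols and the reference gene table matched 0 of the identifiers, so each class is a length and not an identified protein. As background, chromosome 35 of the assembly UU_Cfam_GSD_1.0 holds 41 genes with a histone symbol in that table. Members are numbered here from 1 to 43 along the chromosome.

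Gaps of over 200000 bases divided the members into 6 subclusters. The largest held 19 members between 23977201 and 24194648, and the next held 16 between 24999692 and 25061935. A group of 4 lay between 24544083 and 24558879, members 1 and 2 lay before the largest group, and members 42 and 43 stood alone at 25800969 and 26048935. The strands were almost evenly used, with 21 members on the plus and 22 on the minus strand.

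Members took a small part of each library. Total counts ranged from 9845059 to 14831589 in lymphoma and from 13522628 to 21610927 in control libraries. Counts on all members together ranged between 831 and 2863 per lymphoma library and between 1845 and 5017 per control library. Their share of all counts was 0.0133 ± 0.00596% in lymphoma and 0.0183 ± 0.0061% in control blood (SD, n = 7 each), and the groups overlapped. Lymphoma replicates 2 and 7 stood apart in composition, with TMM factors of 0.67 and 0.679 where the other libraries had 0.869 to 1.31. Between 34 and 41 of the 43 members had a count in lymphoma libraries, and 39 to 42 in control libraries. Thinned to the smallest total, the expected number was 36.4 ± 2.51 in lymphoma and 40.3 ± 1.06 in control libraries (SD, n = 7 each). Thinning evens out the totals but not the composition. Lymphoma replicates 2 and 7 had the fewest members with a count before thinning, 34 each. In whole blood, fewer cells of a type and less RNA per cell cannot be told apart. The blood label itself could not be set against marker genes, since no identifier had a symbol.

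A few members held most of the counts. Of 32928 counts on members over all libraries, 2 genes took 37.9% and 5 took 60.1%. Levels are given as CPM, counts relative to TMM-scaled library sizes, and between genes as CPM per kilobase of gene. Member 21, an H4-length gene at 24194337 to 24194648, had the highest level at 82.5 CPM per kilobase. Next came member 36, the 681-base H1-length gene at 25046023 to 25046703, with 44.9, member 11 (H2B-length, 24131296 to 24131676) with 36.2 and member 9 (H2A-length, 24067113 to 24067505) with 33.6 CPM per kilobase. The median member had 2.84 and the lowest, member 42, had 0.0482 CPM per kilobase. Each of the 4 core length classes thus held members far apart in level. Among the 10 H4-length genes, member 21 took 5707 of 7429 counts.

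**Figure D1:**
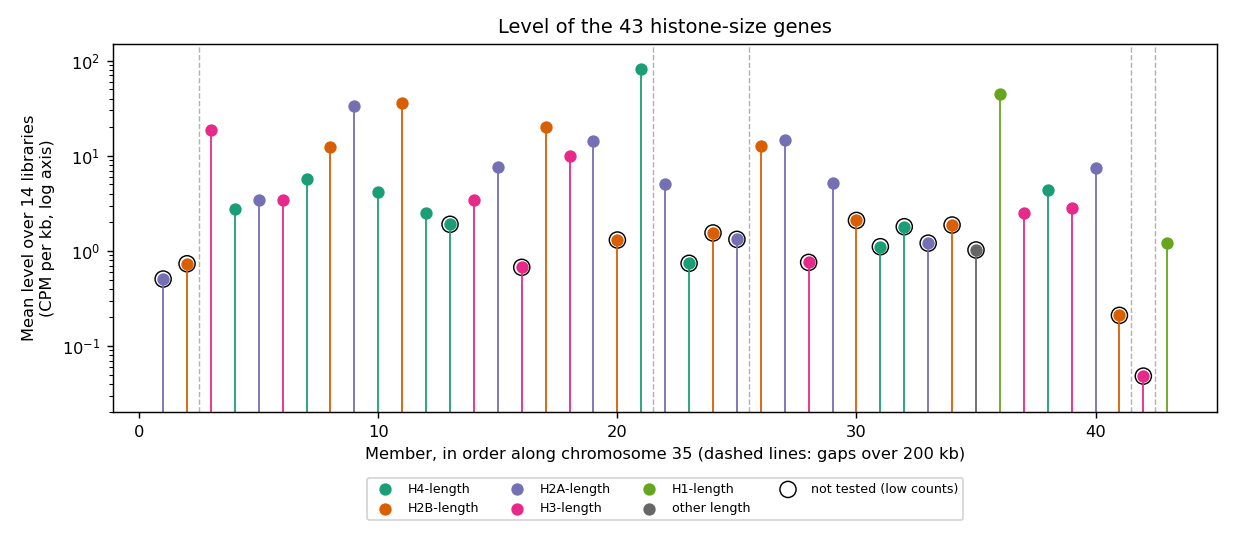
Mean level of each of the 43 members over the 14 libraries, in CPM per kilobase on a log axis, in order along chromosome 35 and coloured by length class. Dashed lines mark gaps of over 200 kb, and rings mark the 17 members with too few counts to be tested. Levels run from 0.0482 to 82.5, and every core class holds both high and low members.

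Blood of the 2 groups was compared to see which of these genes differed in lymphoma. Of the 43 members, 26 had enough counts to be tested, and 1 of them, member 10, was lower in lymphoma by edgeR's quasi-likelihood test at an adjusted p under 0.05. None was called higher. Over all 12836 tested genes, 16.6% were called, 9.21% higher and 7.4% lower. The members were less abundant, with a median log2 CPM of 1.38 over the 26 and 3.82 over all tested genes. Whether this bears on the number called was not tested. At an unadjusted p under 0.05 edgeR gave 8 of the 26 members, 6 lower and 2 higher, where 34.6% of all tested genes passed. The median log2 fold change was -0.46 over the 26 members and -0.05 over all tested genes. Values below 0 were seen for 19 of 26 members (73.1%), and for 52.7% of all tested genes. The median was -0.19 without control replicate 3, the library with the highest level of its group in 12 of 26 tested members. In no tested member were all libraries of one group above all of the other, which was so for 3.78% of all tested genes. Sample numbers in the labels have 5 digits in all 7 control and in 2 lymphoma libraries, and the labels do not say whether this marks a batch. Within these libraries 0 of 37 fitted members were called by edgeR, and 0.713% of all genes. The other 5 libraries are lymphoma alone and give no such value.

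**Figure D2:**
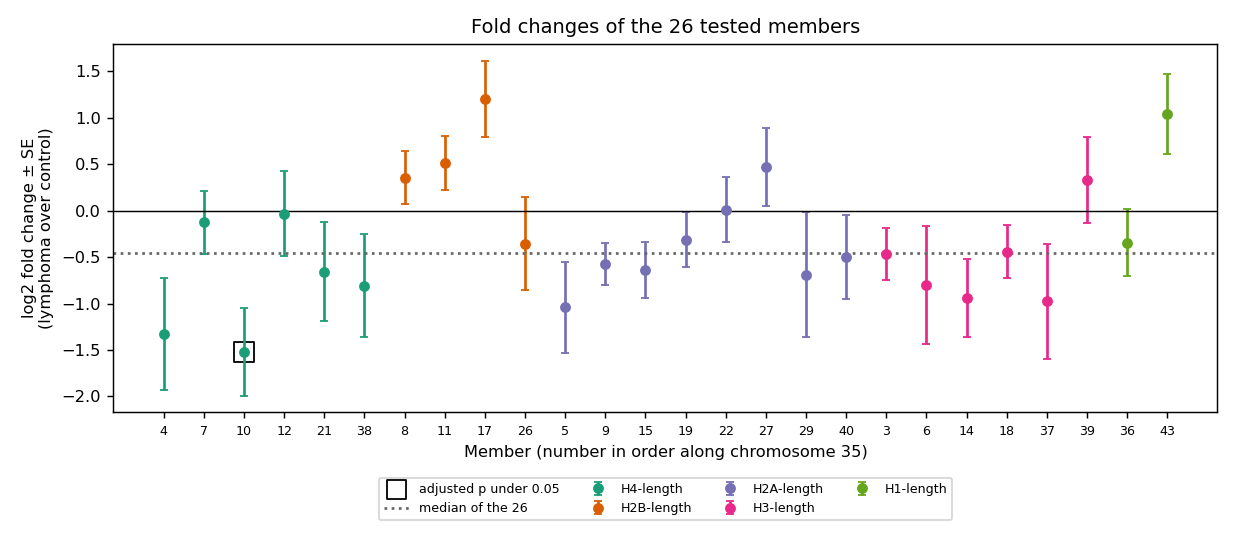
Log2 fold change of the 26 tested members, lymphoma over control, with standard errors from edgeR, grouped by length class. The square marks member 10, the only one with an adjusted p under 0.05, and the dotted line is the median of -0.46. All 6 H4-length genes lie below 0, and 3 of 4 H2B-length genes lie above it.

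H4 pairs with H3 at the core of the nucleosome. Of the 10 H4-length genes 6 were tested, all with a fold change below 0, a median of -0.73 and 1 called. Member 10 (ENSCAFG00000030825, minus strand, 24121361 to 24121672, 312 bases) had 0.148, 0.599 and 1.35 CPM as its lowest, median and highest value in lymphoma. In control libraries these were 0.491, 1.9 and 3.7 CPM. All 7 lymphoma libraries lay below the control median, but the ranges overlapped. Its log2 fold change was -1.52 (SE 0.47, edgeR adjusted p = 0.0369), a call that rests on 54 counts in lymphoma and 259 in control libraries. The call was lost without lymphoma replicate 2, 5 or 7 or control replicate 1, 3, 4, 6 or 7 (log2 fold change -1.58 to -1.29, edgeR adjusted p up to 0.0811). Within the 5-digit libraries its log2 fold change was -2.53 (edgeR adjusted p = 0.177).

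Member 21, the most abundant, showed how widely an H4-length gene could vary within a group. Its level was 3.64, 22.6 and 35.7 CPM (lowest, median, highest) in lymphoma and 6.37, 19.3 and 67.8 CPM in control libraries. The groups overlapped, with 3 control libraries above every lymphoma library and 1 lymphoma library below every control library, and the log2 fold change was -0.66 (SE 0.53, edgeR adjusted p = 0.396). The remaining 4 tested H4-length genes had log2 fold changes from -1.33 (member 4, SE 0.6, edgeR adjusted p = 0.13) to -0.03 (member 12, whose sign turned in 5 of 14 fits with a library left out). Without a filter on low counts, 8 of all 10 H4-length genes lay below 0.

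H3, whose tail carries many of the known histone marks, corresponds to the 411-base length. Of 9 H3-length genes 6 were tested and 0 were called, with a median log2 fold change of -0.63 and 5 of 6 below 0. Member 3 (23977201 to 23977611) was the most abundant, with 3.87, 6.53 and 9.41 CPM in lymphoma and 4.43, 7.83 and 15.2 CPM in control libraries (lowest, median, highest). The ranges overlapped, with a log2 change of -0.47 (SE 0.28, edgeR adjusted p = 0.246). Member 14 (24146998 to 24147408) had the lowest p of the class. Its values were 0.148, 0.9 and 1.5 CPM in lymphoma and 0.898, 1.8 and 2.99 CPM in control blood. All 7 lymphoma libraries lay below the control median, and the log2 fold change was -0.94 (SE 0.42, edgeR adjusted p = 0.127).

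H2A and H2B join as a dimer on either side of the H3 and H4 core. Of 11 H2A-length genes 8 were tested and 0 called, with a median log2 fold change of -0.54 and 6 of 8 below 0. Member 9, the most abundant and the one with the lowest p, had 6.89, 10.5 and 16.7 CPM in lymphoma and 11.4, 17 and 21.6 CPM in control libraries (lowest, median, highest). The lymphoma values all lay below the control median, and the upper ones overlapped the lower control values. Its log2 fold change was -0.57 (SE 0.23, edgeR adjusted p = 0.0868). It passed the threshold in 1 of 14 fits with a library left out, the one without lymphoma replicate 2 (-0.71, edgeR adjusted p = 0.0447).

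H2B-length genes gave a mixed picture. Of 10 such genes 4 were tested, 3 had a log2 fold change above 0 and 0 were called, with a median of 0.44. Over all 10, fitted without a filter, 4 lay above 0 and 6 below with a median of -0.17, and DESeq2 gave 5 and 5. Member 17 (plus strand, 24178933 to 24179313) had the largest fold change of all tested members. Its level was 1.84, 10.3 and 20.2 CPM in lymphoma and 1.77, 4.63 and 7.43 CPM in control blood (lowest, median, highest). Of the 7 lymphoma libraries 6 lay above the control median, while replicates 2 and 3 (5.01 and 1.84 CPM) lay within the control range. The log2 fold change was 1.20 (SE 0.41, edgeR adjusted p = 0.0547). It passed the threshold without lymphoma replicate 3 (1.39, edgeR adjusted p = 0.0136) and without control replicate 1 (1.36, edgeR adjusted p = 0.0479).

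Member 11, the most abundant H2B-length gene, had 8.39, 18.3 and 26 CPM in lymphoma and 6.86, 10.1 and 20.9 CPM in control libraries. Its ranges overlapped widely, with a log2 change of 0.51 (SE 0.30, edgeR adjusted p = 0.226). Member 26 was the tested H2B-length gene with a value below 0 (-0.35, SE 0.5, edgeR adjusted p = 0.645), and without control replicate 3 its value was 0.11. No test was made of a difference between length classes.

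Both H1-length genes were tested and 0 were called, and they differed in sign. Member 36 had 9.41, 19.8 and 49.7 CPM in lymphoma and 20.7, 31.6 and 64.2 CPM in control libraries (lowest, median, highest). The log2 fold change was -0.34 (SE 0.36, edgeR adjusted p = 0.515), with 4 of 7 lymphoma libraries below the control median. Member 43, far from the others at 26048935 to 26049582, was rare, with 0.3, 0.841 and 2.52 CPM in lymphoma and 0.28, 0.339 and 0.786 CPM in control blood. Its log2 fold change was 1.04 (SE 0.43, edgeR adjusted p = 0.101), and 6 of 7 lymphoma libraries lay above the control median. The gene of 357 bases, member 35, had 25 counts in lymphoma and 47 in control libraries and was not tested.

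**Figure D3:**
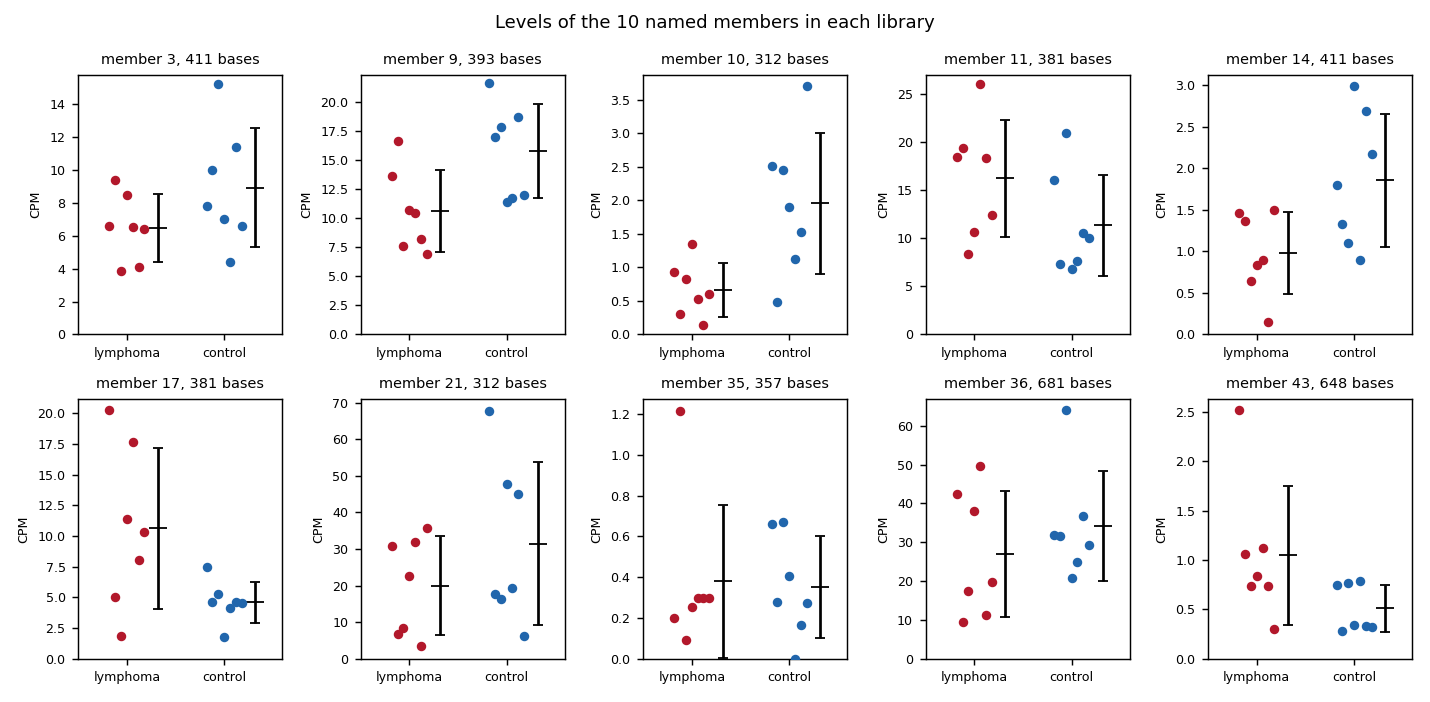
CPM of the 10 members chosen by the naming rule in each of the 14 libraries (points, left to right in the order of replicate number), with mean and SD beside them; all axes start at 0. Lymphoma and control points overlap in every panel, and members 17, 21 and 36 spread widely within a group.

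The summed level of the members varied mostly between libraries of the same group. Together they had 140.1 ± 43.8 CPM in lymphoma and 166.9 ± 50.2 CPM in control blood (SD, n = 7 each). Lymphoma replicate 5 had the highest sum of its group, 200.5 CPM, and replicate 6 the lowest, 86.7 CPM. In control blood, replicate 3 was highest with 241.2 CPM and replicate 5 lowest with 103.6 CPM. Non-lymphoma replicate 5 also had the lowest level of its group in 12 of 26 tested members. H2B-length genes summed to 39.1 ± 12.1 CPM in lymphoma and 28.7 ± 11.7 CPM in control libraries. H2A-length genes summed to 32 ± 7.14 and 41.9 ± 13.8 CPM, and H4-length genes to 26.3 ± 13.1 and 40.9 ± 22.5 CPM (SD, n = 7 each). For H3-length genes the sums were 14.4 ± 3.85 and 20.4 ± 6.55 CPM, and for the H1-length genes 27.9 ± 16.6 and 34.7 ± 14.3 CPM (SD, n = 7 each). No test was made on these sums.

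**Figure D4:**
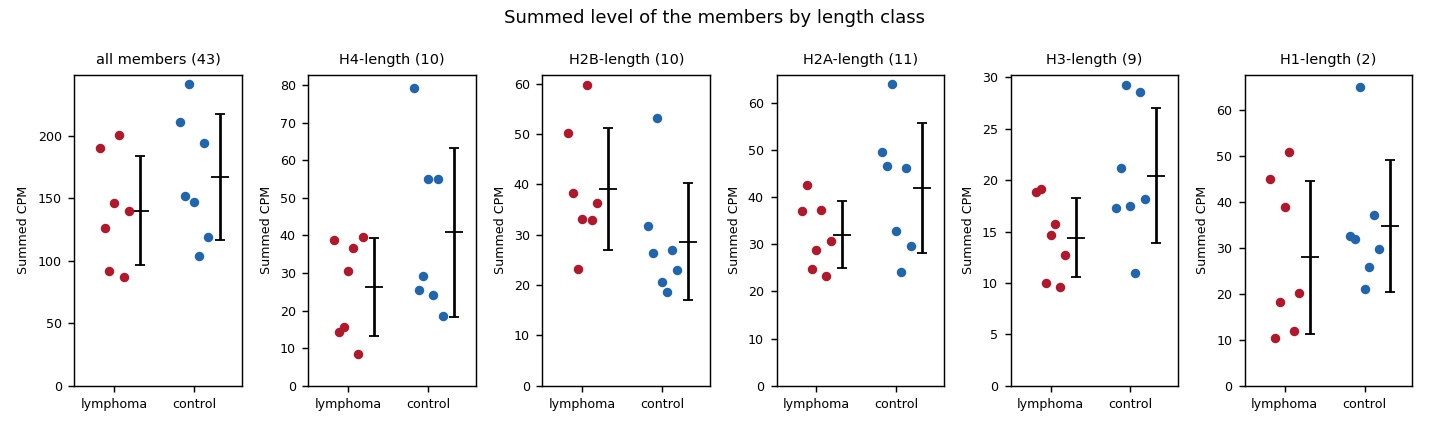
Summed CPM of all 43 members and of 5 length classes in each library, with the mean and SD of each group; axes start at 0 and numbers in brackets count the genes. Mean sums are lower in lymphoma in every panel but H2B-length (39.1 against 28.7 CPM), and all panels overlap.

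The 17 members that were not tested had 5 to 160 counts each over the 14 libraries, and 471 in lymphoma and 1013 in control libraries in all. Without a filter on low counts, edgeR fitted all 43 members and called 2, both lower, with 6.98% of 28663 genes called. Neither was member 10, whose adjusted p was then 0.0537. The called genes fall outside the naming rule and were chosen after their values were seen. Member 2, an H2B-length gene at 23690707 to 23691090, had 3 counts over the lymphoma libraries and 66 over the control libraries, with none in control replicate 7. Its log2 fold change in that fit was -3.61 (edgeR adjusted p = 0.0158). Member 25, an H2A-length gene of 387 bases at 24558493 to 24558879, had 11 and 119 counts and a log2 change of -2.79 (edgeR adjusted p = 0.0275). DESeq2 gave 41 members an adjusted p and called 5, with 19.9% of its genes called. These were members 2, 10, 13 and 25, all lower, and member 17, higher (log2 fold change 1.20, DESeq2 adjusted p = 0.0245).

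Counting did not use strand, per the file header, and 9 members overlap another annotated gene, each on the opposite strand. Of these 7 were tested, and all 7 lie in introns of 5 longer genes with no shared exon bases. The 7 had a median log2 fold change of -0.80 with 6 below 0, and the 19 tested members without an overlap had -0.35 with 13 below 0. Member 10 lies within an intron of a 2-exon plus-strand gene at 24092007 to 24124371. That gene had 8257 counts and was itself lower in lymphoma, with a log2 change of -0.77 (SE 0.21, edgeR adjusted p = 0.0222). Among the 19 members without an overlap, edgeR called 0, and among the 7 with an overlap it called member 10 alone. Of all tested genes 16.6% were called. The other 4 host genes had log2 fold changes from -0.39 to 0.15 and none was called. The part of host reads in the members' counts was not tested. Member 2 shares 33 exon bases with its overlapping gene, which had 21 counts in all libraries.

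Histone genes of the H2A and H2B kinds often stand back to back around a shared promoter. Among the members there were 7 pairs in which a minus-strand gene was followed within 500 bases by a plus-strand gene. All 7 joined an H2A-length with an H2B-length gene. Partners were unequal in level by 1.15 to 35.6 times per kilobase, with the H2A-length gene higher in 5 pairs and the H2B-length gene in 2. The most unequal was the pair of members 40 and 41, with 649 and 16 counts. The most alike was the pair of members 26 and 27, at 12.6 and 14.5 CPM per kilobase.

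Apart from the 0.5 counts added to each partner, the ratio within a pair does not depend on the scaling of libraries. The added counts weigh most where a partner has few counts. The ratio was compared in the 2 pairs where both partners were tested, a choice made after the data were seen. In the pair of members 8 and 9 (24066399 to 24066779 and 24067113 to 24067505, with no overlap with other genes), the H2A-length partner was higher per kilobase in all 14 libraries. The log2 ratio of H2B-length to H2A-length partner was -0.92 ± 0.48 in lymphoma and -1.99 ± 0.57 in control libraries (SD, n = 7 each). The ratio was thus higher by 1.07 in lymphoma (two-sided exact permutation p = 0.00524, adjusted p = 0.0105 over 2 pairs), and 5 of 7 lymphoma libraries lay above every control library. The adjustment covers these 2 pairs alone, and how often ratios of other genes would pass was not examined. Of all tested genes taken singly, 34.6% had an unadjusted edgeR p under 0.05. The partners' own log2 fold changes were 0.36 (SE 0.29, edgeR adjusted p = 0.39) for member 8 and -0.57 for member 9. With any 1 library left out, the difference was 0.96 to 1.24 and passed each time (adjusted exact permutation p up to 0.021). Within the 5-digit libraries it was 1.27 (exact permutation p = 0.0556, the smallest two-sided value that 36 assignments allow).

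In the pair of members 26 and 27 the difference had the opposite sign and did not pass. The log2 ratio was -0.73 ± 0.77 in lymphoma and 0.14 ± 1.14 in control libraries (SD, n = 7 each; difference -0.87, two-sided exact permutation p = 0.124, adjusted p = 0.124). It passed without control replicate 1 (-1.17, adjusted exact permutation p = 0.0291). Of the other 5 pairs, each with an untested partner, the mean log2 ratio was higher in lymphoma in 4 and lower in 1. Where a partner had few counts, these means depend on the 0.5 added counts. They then vary with library totals too, which were mostly smaller in lymphoma. The pair of members 24 and 25 had 46 and 11 counts in lymphoma and 84 and 119 in control libraries.

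**Figure D5:**
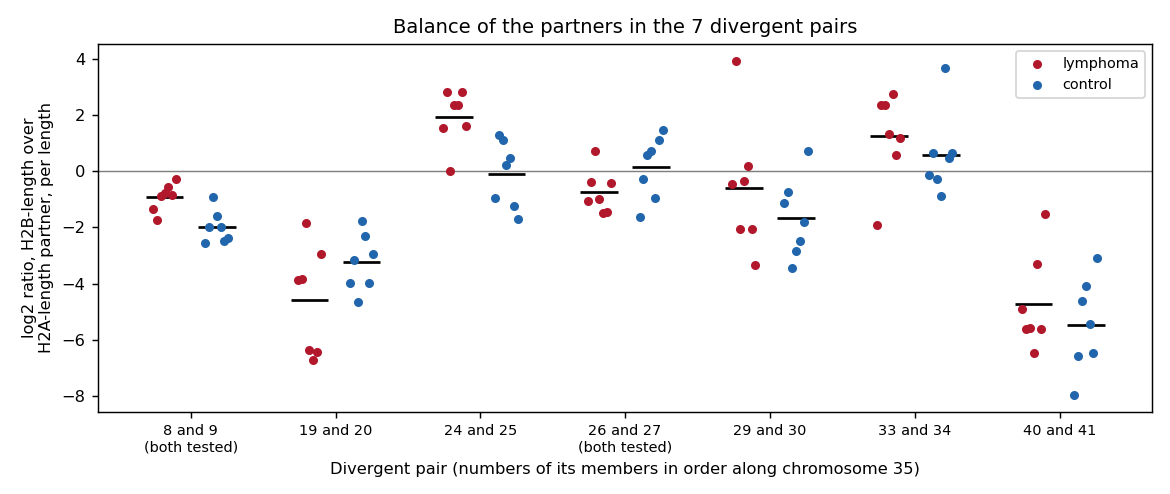
Log2 ratio of the H2B-length to the H2A-length partner, per length and with 0.5 counts added, in each library for the 7 divergent pairs; black lines are group means. In the pair of members 8 and 9, lymphoma libraries average -0.92 and control libraries -1.99. Points far from 0 in other pairs rest on few counts of 1 partner.

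Genes near the members and genes of the same size elsewhere were set beside them. Of 110 other genes that start in the same window 47 were tested, with 2 called higher and 3 lower and a median log2 fold change of -0.07. Of 601 single-exon genes of 300 to 700 bases elsewhere 164 were tested, with 10 called higher and 18 lower and a median of -0.12. Lengths that also occur among the length classes were found in 90 of these genes, 31 of them tested, with 1 called higher, 2 lower and a median of -0.03.

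Such genes stood in 3 further groups, a description made after the data were seen. Chromosome 17 held 7 between 59121976 and 59176643, of which 5 were tested, with log2 fold changes from -1.18 to -0.13 and 0 called (lowest edgeR adjusted p = 0.0734). Chromosome 27 held 2, a 390-base gene at 31835623 called lower (-1.21, SE 0.26, edgeR adjusted p = 0.00795) and a 312-base gene at 31840011 that was not called (-0.66, edgeR adjusted p = 0.142). Chromosome 14 held 3 between 599408 and 604897, 1 of them tested (-1.04, edgeR adjusted p = 0.226). All 8 tested genes of these groups had fold changes below 0. Of the 31 tested genes of these lengths elsewhere, with these 8 included, 18 lay below 0 and 13 above. Over all tested genes 52.7% lay below 0.

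Members of one length class may be near-identical in sequence. Reads that map to several copies could be lost, since the counting command sets no option for multi-mapping. The counts of single members are uncertain to that extent. The sequences were not examined here.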

How the data were processed

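Whole blood RNA of 14 dogs was sequenced, 7 per group. The authors deposited 1 table of raw counts of read pairs per gene, made with featureCounts 2.0.1 on exons of Ensembl release 103, per the file headers. The header's command sets no option for strand, multi-mapping or overlapping reads. HISAT2 2.2.1, Subread 2.0.1, DESeq2 and CanFam3.1 are named in the submitters' processing notes. Poly(A) selection or ribosomal depletion is not given in the sources used here.

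Members and lists were chosen with earlier results of these data known. Length classes were H4 300 to 330, H2B 372 to 384, H2A 385 to 402, H3 405 to 420 and H1 600 to 700 bases. All genes were fitted with edgeR 4.0.16 in R 4.3.3 (TMM factors, filterByExpr, quasi-likelihood F test, group as the only term, Benjamini-Hochberg adjustment over 12836 genes at 0.05). The SE is the absolute log2 fold change over the square root of F. Tested on simulated data for this comparison (12720 genes), the procedure found 35 of 97 genes with a true log2 change of 1, and 95 of 98 with a change of 2. It made 4 false calls. Every simulated gene had the same dispersion, and the changed genes were drawn from all tested genes. The members were less abundant than those genes, so these figures do not give the power for the members. Pair ratios used 0.5 added counts and exact permutation tests over 3432 assignments (scipy 1.17.1). Named members are those called, the lowest p and highest level of each length class, and the largest and smallest fold change. Lists of histone processing, S phase and cell type genes could not be matched to identifiers and were not used. Alternatives were RLE, upper-quartile and TMMwsp factors, other filters, thinning to 9845059 counts, DESeq2 1.42.0, limma 3.58.1 (voom), a replicate block, 5-digit libraries and leaving out each library. The smallest chi-square per degree of freedom between 2 libraries was 59.2, so none was a duplicate.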

Additional observations from a re-analysis of the deposited data

Results flagged for a closer look

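Among 20 groups of 7 libraries examined, for the 9 named members that were tested and for the share of counts on members, 2 held an outlying library; about 1 in 20 would be so by chance. Distance from the next library was taken relative to the whole range of the group, on log2 values. Lymphoma replicate 6 had the lowest level of member 14, the H3-length gene at 24146998, with a gap of 0.577 of the range and 2 counts. Control replicate 4 had the lowest level of member 17, the H2B-length gene at 24178933, with a gap of 0.579 of the range and 26 counts.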

How the results depend on the processing

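The median log2 fold change of the fitted members was below 0 under every alternative run. The number of members called ran from 0 to 5. Of all genes, 16.6% were called in the main fit, 6.98% without a filter, 19.9% with DESeq2 and 0.713% within the 5-digit libraries. For the other alternatives this share was not taken, so their counts cannot be set against it. Called in either direction, against 1, were 2 without a filter, 5 with DESeq2, 3 at an adjusted p under 0.1, 0 with limma voom (edgeR's call had a voom adjusted p of 0.0605; edgeR gave 8 at an unadjusted p under 0.05) and 0 within the 5-digit libraries. Called higher, against 0, were 1 with DESeq2 and 1 at an adjusted p under 0.1. Called lower, against 1, were 2 without a filter, 4 with DESeq2, 2 at an adjusted p under 0.1, 0 with limma voom and 0 within the 5-digit libraries. With 1 library left out, 0 to 2 were called in either direction, 0 to 1 higher and 0 to 2 lower. The calls in these fits concerned members 5, 8, 9, 10 and 17. Fewer libraries were used in these fits; otherwise the cause was not tested. The labels do not say whether the numbers 1 to 7 pair the dogs. Of 7 same-numbered pairs 1 had a correlation over 0.1, and 1 of 7 lymphoma libraries correlated best with its own number. Dogs could be matched without their levels correlating, so these values cannot decide it. With the replicate number as a block, 0 members were called in either direction and 0 lower. The ratio of members 8 and 9 was 1.27 within the 5-digit libraries, where the adjusted exact permutation p could not pass, and 0.96 to 1.24 with 1 library left out. That of members 26 and 27 was -1.17 to -0.65 with 1 library left out. RLE, upper-quartile and TMMwsp factors, thinning and a filter of at least 10 counts in 7 libraries, which let in 28 members, each called member 10 alone. Low counts left 17 of 43 members untested.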
